A study of Sus scrofa with 12 samples.

Results

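NDFIP2, its circular RNAs and the ligases that its protein binds were followed in the liver of Bama and Hezuo pigs kept warm or cold. The gene table holds 21169 rows, and 7 of them carry the symbol NDFIP1, NDFIP2, NEDD4, NEDD4L, ITCH, WWP1 or WWP2. The circRNA table holds 24177 rows, and 14 of them carry the symbol NDFIP2. The other 6 genes are hosts of 85 further rows. NDFIP2 stood out in its circRNA values in these libraries, that is, the members were chosen by the measured back-splice values, so its circRNAs, its gene row and their ratio are described here with no test. The other 6 genes and their circRNAs were tested.

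There were 12 libraries, taken as 1 per pig, in 4 groups of 3 pigs. Bama pigs kept at room temperature (23 ± 2 °C), Bama pigs kept in the cold (-15 ± 2 °C) and Hezuo pigs of the same 2 temperatures were all sampled on day 15. They are called warm and cold Bama and warm and cold Hezuo below. The labels give no genotype, age or sex, and no manipulation other than temperature. The question set by the design was which RNAs of the liver differ with cold and between the breeds.

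Ubiquitin ligases of the NEDD4 family hold a HECT domain, which passes ubiquitin to the substrate, and WW domains, which bind short proline-rich PY motifs. NEDD4, NEDD4L, ITCH, WWP1 and WWP2 are such ligases. They control how long membrane receptors, channels, transporters and signalling proteins last. NDFIP1 and NDFIP2 are membrane proteins of the Golgi and endosomes whose PY motifs bind and activate these ligases and bring them to substrates. Only NDFIP1 and NDFIP2 are therefore adaptors, and the other 5 are the ligases. A circRNA is a closed loop in which the end of a downstream exon is spliced back to the start of an upstream one. Reads that cross this back-splice junction count the circle, and circles resist exonucleases.

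Back-splice counts ranged from 39117 to 75616 per library and gene counts from 20041285 to 30188037. All 10 hepatocyte markers were above 0 in every library, as the liver label says. Their summed level ranged from 128508 to 141751 CPM (counts per 1000000) in warm Bama and from 45636 to 110051 in cold Bama. It ranged from 173984 to 193976 CPM in warm Hezuo and from 79490 to 159536 in cold Hezuo. The Y-linked gene DDX3Y had at most 3 counts in each warm Bama library and 0 in replicate 2 of cold Bama. The other 8 libraries had 1331 to 3769. In bulk tissue, fewer cells of a type and less RNA per cell cannot be told apart.

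The 14 NDFIP2 circRNAs came from a stretch of chromosome 11 on the plus strand, and 7 of them shared a start and differed in where the circle closed. Positions are copied from the authors' circRNA table, whose genome build is not given in the sources used here. The starts and ends of 11 circles fell on 6 exon blocks, lettered here in their order on the chromosome. Block A lies at chr11:51531489-51531654 and is 166 bases long, and block B at chr11:51534767-51534900 (134 bases). Block C lies at chr11:51540591-51540684 (94 bases) and block D at chr11:51547073-51547197 (125 bases). Block E lies at chr11:51551527-51551593 (67 bases) and block F at chr11:51554687-51554792 (106 bases). For each of these 11 circles, the spliced length in the table equalled the sum of all blocks from its first to its last. A circle is named below by its first and last block.

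Of the 14 circles, 7 began at the first base of block A. Circle A-C, of 394 nt, held 2023 of the 3866 NDFIP2 back-splice counts, or 52.3%. Circle A-F, of 692 nt, held 834 counts (21.6%), A-D, of 519 nt, held 533 (13.8%) and A-B, of 300 nt, held 240 (6.21%). These 4 and circle C-F were seen in all 12 libraries. The others were rare, with 76 counts for C-F (392 nt), 49 for C-E (286 nt), 42 for A-E (586 nt) and 29 for A-A (166 nt), which is 1 exon closed on itself. B-F had 15 counts, B-E 9 and C-D 3.

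The remaining 3 rows were not made of whole blocks. One ran from chr11:51531489-51536128 with intron sequence in it (1528 nt, 9 counts) and another from chr11:51511828-51547197, also with intron (20180 nt, 2 counts). The last, at chr11:51534767-51547191 (347 nt, 2 counts), ended 6 bases short of the end of block D. In all, 9 of the 14 circles passed the filter on low counts.

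**Figure D1:**
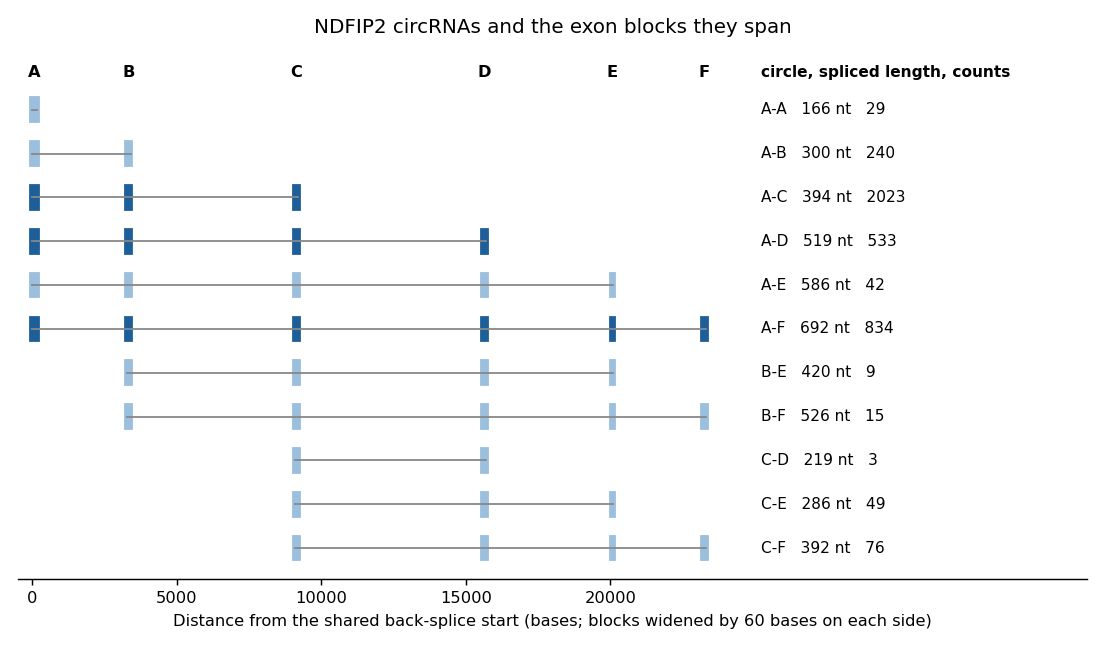
NDFIP2 circRNAs drawn against the distance in bases from the shared back-splice start, 1 row per circle made of whole blocks, with filled boxes for the exon blocks A to F and the spliced length and total back-splice counts at the right. Dark blue marks the 3 circles with the most counts (A-C, A-D and A-F), and 7 of the circles in the table start at block A, 6 of which are drawn here.

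In cold Bama pigs, the 3 abundant circles A-C, A-F and A-D stood well above their level at room temperature. All NDFIP2 circles together had 183, 182 and 234 counts in replicates 1 to 3 of warm Bama and 291, 503 and 908 in cold Bama. The warm Hezuo pigs had 236, 243 and 222 counts and the cold ones 267, 251 and 346. Every cold library of a breed was above every room temperature library of that breed, but the gap was wide in Bama and narrow in Hezuo. Scaled to all back-splice counts, the means were 3541 ± 310 CPM (SD, n = 3) in warm Bama, 12714 ± 5798 in cold Bama, 5457 ± 371 in warm Hezuo and 7140 ± 618 in cold Hezuo.

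As a share of all back-splice counts, NDFIP2 took 0.268% to 0.334% in warm Bama. In cold Bama it took 0.744% in replicate 1 (95% Wilson interval 0.663 to 0.834), 0.918% in replicate 2 (0.842 to 1.002) and 1.65% in replicate 3 (1.54 to 1.76). The 3 cold Bama pigs thus differed among themselves by more than counting error, which is all that these intervals cover. The share was 0.465% to 0.527% in warm Hezuo and 0.625% to 0.663% in cold Hezuo. Y-linked RNA moved with the Bama groups (at most 3 DDX3Y counts in warm Bama, and 2284, 0 and 3769 in replicates 1 to 3 of cold Bama), and its part in the result was not tested. Warm Hezuo pigs had 1605, 1331 and 1844 DDX3Y counts. At room temperature breed and Y-linked RNA therefore cannot be told apart, for circRNAs and genes alike.

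Circle A-C had 92, 95 and 105 counts in warm Bama and 141, 286 and 408 in cold Bama. Hezuo pigs had 150, 144 and 122 counts when warm and 136, 145 and 199 when cold. The Bama groups did not overlap once scaled (1740 ± 215 and 6226 ± 2315 CPM), and the Hezuo groups did (3234 ± 319 and 3967 ± 562 CPM). The fitted log2 fold change in the cold was 1.84 ± 0.24 (SE) in Bama and 0.29 ± 0.23 in Hezuo. At room temperature A-C was higher in Hezuo than in Bama without overlap (0.90 ± 0.24), and in the cold the breeds overlapped (-0.65 ± 0.23).

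Circle A-F, the longest of the abundant circles, was the one that was higher in the cold in both breeds without overlap. It had 35, 38 and 62 counts in warm Bama and 61, 112 and 302 in cold Bama. Counterparts in Hezuo were 26, 26 and 23 counts in the warm and 56, 47 and 46 in the cold. The log2 fold change in the cold was 2.15 ± 0.30 in Bama and 1.09 ± 0.31 in Hezuo, or 4.44-fold and 2.13-fold. In the cold it was lower in Hezuo than in Bama without overlap (-1.50 ± 0.30).

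Circle A-D had 25, 34 and 21 counts in warm Bama and 59, 68 and 179 in cold Bama. The warm Hezuo pigs had 26, 30 and 22 counts and the cold ones 31, 26 and 12. Its groups thus stood apart in Bama and overlapped in Hezuo, with a log2 fold change of 2.24 ± 0.34 against -0.06 ± 0.35 in Hezuo. The difference between those responses was fitted at -2.30 ± 0.49 and, as for the other NDFIP2 values, was not tested. For A-C it was -1.55 ± 0.33 and for A-F -1.06 ± 0.43.

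Replicate 3 of cold Bama held 908 of the 3866 counts and weighed on all 3 circles. Without it, the log2 fold change in cold Bama was 1.49 for A-C, 1.63 for A-D and 1.33 for A-F. The difference of A-F between the breeds in the cold was then -0.67 and that of A-C -0.30. The direction in Bama was the same whichever 1 of the 12 libraries was left out.

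The other 6 fitted circles overlapped between warm and cold Bama. Circle A-B, which stops 1 block before A-C, had 22, 7 and 18 counts in warm Bama and 17, 22 and 7 in cold Bama. Hezuo pigs had 19, 29 and 17 counts when warm and 21, 19 and 42 when cold. Its log2 fold change in the cold was 0.40 ± 0.46 in Bama and 0.40 ± 0.43 in Hezuo, and it differed instead by breed, without overlap at either temperature (0.89 ± 0.45 and 0.88 ± 0.45, Hezuo higher).

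Circle C-F, which lacks blocks A and B, had 3, 1 and 9 counts in warm Bama, 3, 2 and 5 in cold Bama, 8, 8 and 15 in warm Hezuo and 5, 9 and 8 in cold Hezuo. After scaling it was higher in Hezuo without overlap at both temperatures (1.68 ± 0.76 and 1.22 ± 0.80). Circle C-E had 0, 0 and 1 counts in warm Bama and 4, 5 and 16 in warm Hezuo, and 3, 1 and 0 in cold Bama against 2, 1 and 16 in cold Hezuo. These counts are small, and 1 pig in each Hezuo group gave most of those of C-E. For cold in Bama, the log2 fold change of C-E was 2.04 ± 1.43 and that of C-F 0.07 ± 0.85, so a difference as large as that of the abundant circles cannot be told from none for C-E at this depth.

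Summed, the 3 abundant circles rested on 3390 counts and the other 11 on 476. The mean CPM of the 3 in the cold was 3.99 times that in the warm in Bama and 1.31 times in Hezuo, without overlap in either breed. For the other 11 it was 1.30 times in each breed, with overlap, and Hezuo had 1.98 times the level of Bama when warm and 1.97 times when cold, without overlap. The 3 circles in Hezuo were at 1.47 times their level in Bama when warm and at 0.482 times when cold. The 3 and the 11 were separated by their counts after these values were known.

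Of the 9 circles that passed the filter, 3 were higher in cold Bama without overlap, where 4.12% of all 9032 circRNAs were, and 1 was higher in cold Hezuo, where 4.35% were. Against Bama, 4 were higher in warm Hezuo (5.54% of all circRNAs) and 2 in the cold (5.21%), and 2 were lower in cold Hezuo (5.8%). None was lower in the cold in Bama (6.24% of all circRNAs) or in Hezuo (4.24%), or lower in warm Hezuo than in warm Bama (6.68%). These shares are given for scale, since the values chose the members.

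**Figure D2:**
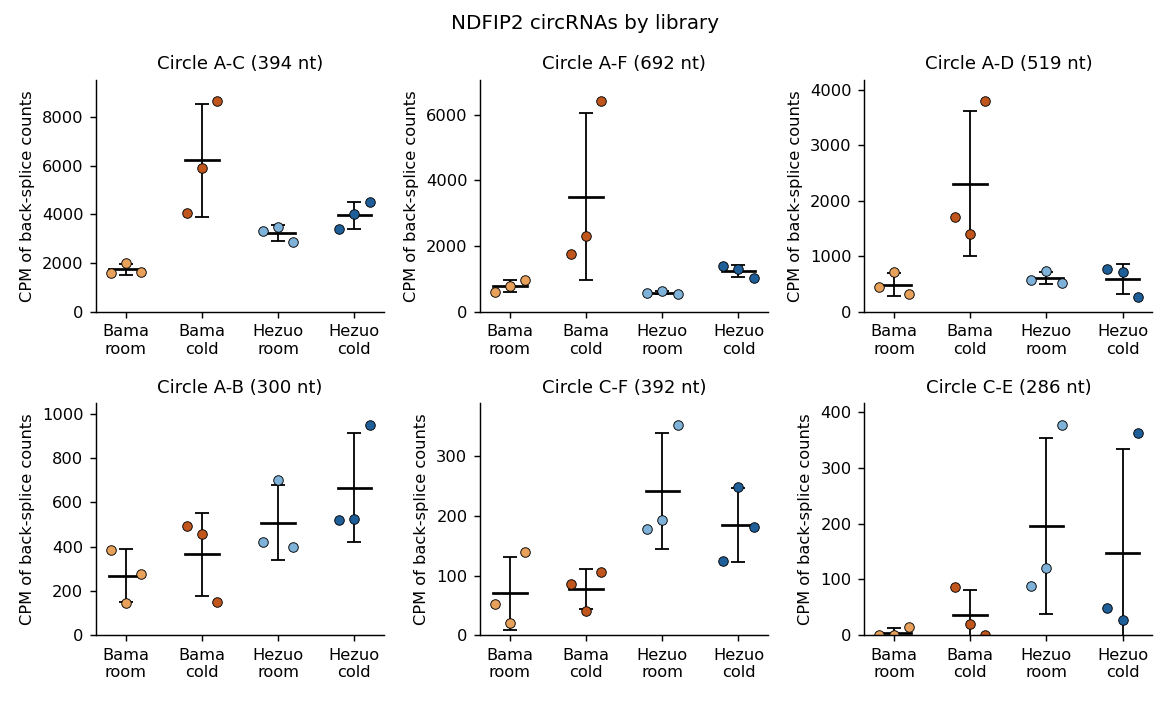
Back-splice counts per 1000000 (CPM, linear axes starting at 0) of the 6 NDFIP2 circles with 49 or more counts, by group. Points are pigs, horizontal lines are means and bars are SD (n = 3). A-C, A-F and A-D are highest in cold Bama, where replicate 3 lies far above the others, while warm and cold Bama overlap in A-B, C-F and C-E, of which C-E has at most 3 counts in any Bama library.

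The make-up of the NDFIP2 circles also differed between groups. Circle A-F made up 22.2% ± 3.85 of NDFIP2 back-splice counts in warm Bama and 25.5% ± 6.76 in cold Bama. Its share was 10.7% ± 0.328 in warm Hezuo and 17.7% ± 3.95 in cold Hezuo. The 3 Hezuo pigs at room temperature, at 11.02%, 10.7% and 10.4%, lay below each of the other 9 pigs, the lowest of which had 13.3%. Each of these shares rests on 182 to 908 counts, and the interval of the Hezuo pig with 10.4% was 7.003 to 15.1.

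Circle A-C held 49.1% ± 3.80 and 50.1% ± 6.13 in warm Bama and in the cold, and 59.3% ± 4.30 and 55.4% ± 3.87 in Hezuo. Circle A-D held 13.8% ± 4.85 and 17.8% ± 3.75 in Bama, and 11.1% ± 1.22 and 8.48% ± 4.38 in Hezuo. The A-D shares of cold pigs of the 2 breeds did not overlap, with 13.5% to 20.3% in Bama and 3.47% to 11.6% in Hezuo. A-B held 0.771% in Bama cold replicate 3, the pig with the most NDFIP2 circles, and 3.85% to 12.1% in the other 11 pigs.

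**Figure D3:**
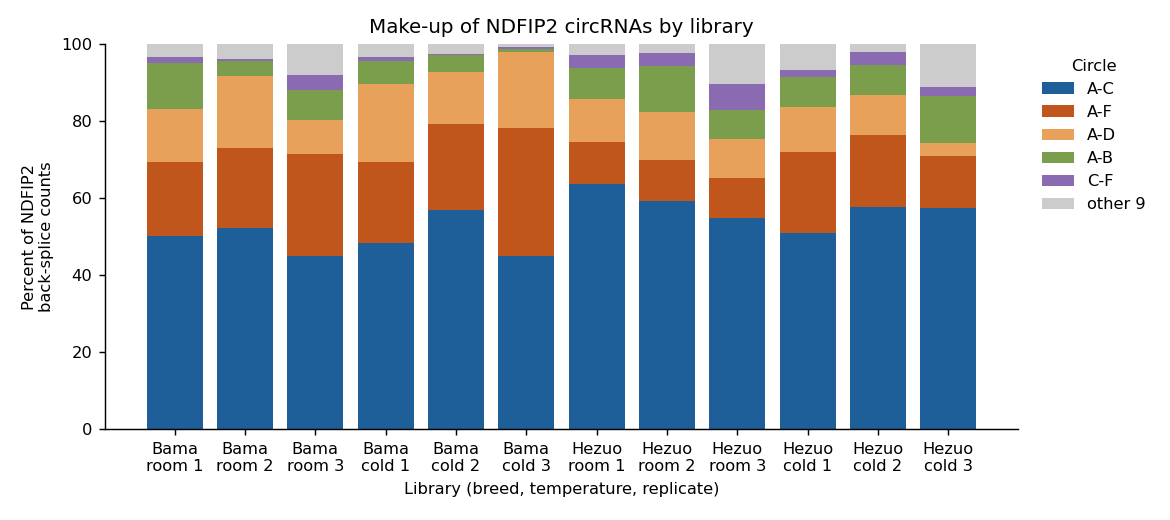
Share of each NDFIP2 circle in the NDFIP2 back-splice counts, 1 stacked bar per library adding up to 100%. The A-F share is smallest in the 3 Hezuo pigs at room temperature (10.4% to 11.02%) and largest in Bama cold replicate 3 (33.3%).

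The NDFIP2 gene row was also higher in cold Bama, by a smaller factor than the abundant circles. It had 1827, 2899 and 1696 counts in warm Bama and 3232, 4199 and 4174 in cold Bama. Counterparts in Hezuo were 2491, 1879 and 3126 counts in the warm and 2737, 3946 and 2907 in the cold. The 3 cold Bama pigs were above all 3 warm ones (72.8 ± 30.1 and 141 ± 8.78 CPM of gene counts), with a log2 fold change of 0.95 ± 0.27. The Hezuo groups overlapped (0.29 ± 0.27), as did the breeds at room temperature (0.65 ± 0.27) and in the cold (-0.01 ± 0.27). Bama replicate 2 at room temperature was the highest of its group, and without it the Bama difference was 1.35.

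The levels of circle and gene row were then set against each other as back-splice counts per 1000 gene counts of NDFIP2 in the same library. The libraries were depleted of ribosomal RNA and not selected for poly(A), so reads from the exons of a circle also count towards the gene row, which is not purely linear RNA. The ratio was 100.2, 62.8 and 138.0 in warm Bama and 90.0, 119.8 and 217.5 in cold Bama. The warm Hezuo pigs had ratios of 94.7, 129.3 and 71.0 and the cold ones 97.6, 63.6 and 119.0. The groups overlapped in all 4 comparisons, and the pigs of 1 group differed by as much as the groups did.

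The mean ratio was 100.3 ± 37.6 in warm Bama, 142 ± 66.7 in cold Bama, 98.4 ± 29.3 in warm Hezuo and 93.4 ± 27.9 in cold Hezuo. On the log2 scale the ratio differed by 0.48 in cold Bama, against a spread between pigs of 0.61 (SD), and by -0.08 in cold Hezuo. Between the breeds it differed by 0.00 at room temperature and by -0.55 in the cold. Per 1000000 gene counts of the library, with no division by the NDFIP2 gene row, the Bama difference was 1.65. Without Bama cold replicate 3 the ratio difference in Bama was 0.12.

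Across the 1936 hosts with at least 50 back-splice counts, the median log2 difference of this ratio in cold Bama was -0.32. NDFIP2 lay above most of them, as 207 hosts had a larger increase. In cold Hezuo, 846 hosts did. These ranks describe where NDFIP2 stood and carry no test.

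**Figure D4:**
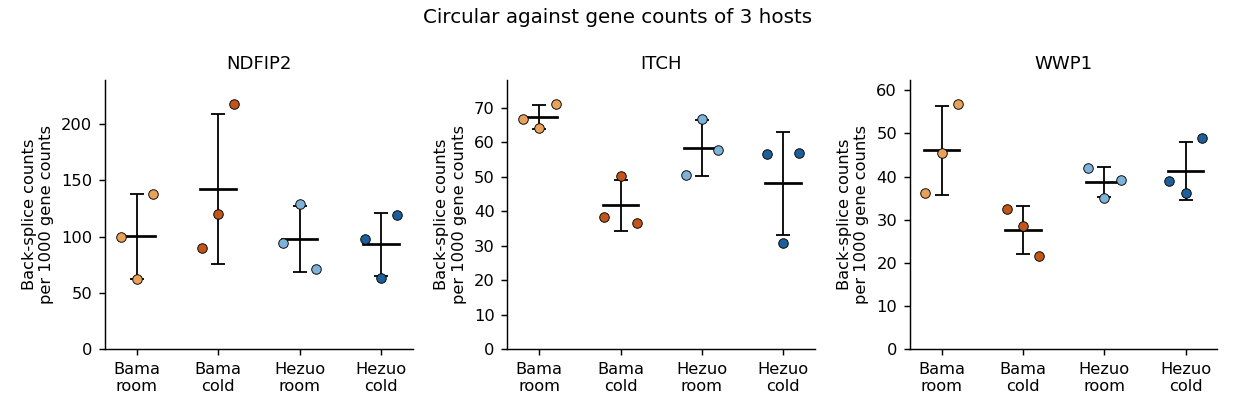
Back-splice counts per 1000 gene counts of the same host (linear axes starting at 0) for NDFIP2, ITCH and WWP1 by group. Points are pigs, lines are means and bars are SD (n = 3). The NDFIP2 groups overlap, while the ITCH and WWP1 ratios are lowest in the 3 cold Bama pigs on average (41.8 and 27.6).

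NDFIP2 stood apart from the other 6 genes in how much of its RNA was seen as circles. With 3866 back-splice counts it ranked 8th among the 5737 hosts that have a gene row. WWP1 followed with 1399 counts in 34 circles (48th) and ITCH with 1257 in 39 circles (55th). WWP2 had 84 counts in 5 circles, NDFIP1 25 in 2, NEDD4 14 in 3 and NEDD4L 10 in 2. Per 1000 gene counts over all libraries, this was 110 for NDFIP2, 53.1 for ITCH, 37.9 for WWP1, 3.18 for NEDD4, 2.68 for WWP2, 0.829 for NDFIP1 and 0.687 for NEDD4L. By library, NDFIP2 and ITCH overlapped in warm Bama (62.8 to 138 and 64.3 to 71.0) and stood apart in the other groups. In NDFIP2 a single circle held 52.3% of the back-splice counts, and in ITCH and WWP1 the most abundant circle held 19.97% and 21.2%.

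The 7 genes kept nearly the same order of abundance in all groups. Per length, by the FPKM values that the authors deposited, NDFIP1 was highest in each group, at 46.7 ± 6.22 to 54.0 ± 3.19. NEDD4 was lowest, at 1.97 ± 0.451 to 3.54 ± 0.655, and NEDD4L next, at 7.04 ± 0.874 to 10.05 ± 0.826. NDFIP2 was 3rd at room temperature, at 16.2 ± 5.67 FPKM in Bama and 22.3 ± 6.85 in Hezuo, behind WWP2 at 23.2 ± 3.75 and 22.8 ± 1.72. In the cold it was 2nd, at 35.2 ± 2.71 in Bama and 28.2 ± 6.16 in Hezuo. In warm Bama the places of NDFIP2, WWP1 (15.4 ± 0.656) and ITCH (15.1 ± 1.89) are not firm, since they differed by less than the SD of NDFIP2. The ranges of NDFIP2 and WWP2 also overlapped in warm Bama and in both Hezuo groups, so their order was clear only in cold Bama. Over the 12 libraries, NDFIP2 spanned 12.7 to 38.0 FPKM, the widest relative range of the 7 genes, and NDFIP1 39.6 to 56.3.

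None of the 6 tested genes passed at an adjusted p of 0.05 in edgeR's quasi-likelihood test in any of the 6 comparisons (cold in Bama, cold in Hezuo, breed in the warm, breed in the cold, the gap between both cold responses, and cold averaged over the breeds). Of all 13532 genes tested, 0.924% were called for cold in Bama, 0.281% for cold in Hezuo, 1.08% for breed at room temperature, 2.76% for breed in the cold, 0.00739% for the difference of the cold responses and 3.89% for cold averaged. At an unadjusted p of 0.05, 1, 1, 1, 2, 1 and 3 of the 6 passed, in that order. Of all genes, 15.8%, 15.6%, 19.8%, 21.1%, 8.02% and 23.5% did. DESeq2 called 1 of the 6, ITCH, for cold in Bama, and none in the other 5 comparisons. It called 682 of all 13532 genes for cold in Bama. Where only the lack of overlap in CPM is counted, 1 of the 6 was higher in cold Bama, ITCH (11.2% of all genes), and none lower (10.2%), and 1 was lower in cold Hezuo, NEDD4L (10.9%). Between the breeds, WWP1 was higher (13.0%) and NEDD4 lower (10.8%) in warm Hezuo, and NDFIP1 was higher (12.3%) and NEDD4 and ITCH lower (12.9%) in cold Hezuo. By FPKM the same groups stood apart for ITCH and NEDD4 but overlapped for NEDD4L, WWP1 and NDFIP1, so for the latter genes this depended on scaling. The median log2 fold change of the 6 was -0.04 for cold in Bama, -0.07 for cold in Hezuo, 0.19 for breed at room temperature and -0.09 for breed in the cold, beside medians of all genes of -0.01, -0.01, -0.0033 and -0.0070.

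NDFIP1, the adaptor related to NDFIP2, did not show the cold difference of NDFIP2. It had 95.3 ± 6.58 CPM in warm Bama, 92.8 ± 1.41 in cold Bama, 102.9 ± 12.8 in warm Hezuo and 103 ± 8.67 in cold Hezuo. Its log2 fold change was -0.04 ± 0.12 for cold in Bama and 0.01 ± 0.12 for cold in Hezuo (edgeR adjusted p = 0.909 and 0.984). In the cold, all 3 Hezuo pigs were above the 3 Bama pigs by a small step of 0.16 ± 0.12 (adjusted p = 0.505), which 12.3% of all genes matched in direction and lack of overlap. By FPKM the means went the other way, with overlap (48.4 ± 2.82 in cold Hezuo and 54.0 ± 3.19 in cold Bama).

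ITCH, a ligase that acts on JUNB, TXNIP and other proteins of immune and stress signalling, had the smallest adjusted p of the 6 genes for cold in Bama. It had 56.5, 72.7 and 70.6 CPM in warm Bama and 82.4, 91.5 and 96.5 in cold Bama. The warm Hezuo pigs had 82.1, 72.0 and 77.8 CPM and the cold ones 73.2, 76.6 and 73.1. The Bama groups did not overlap (0.44 ± 0.12, adjusted p = 0.123), as was so in this direction for 11.2% of all genes. DESeq2 gave an adjusted p of 0.0196, and over all alternatives it ranged up to 0.955, with Y-linked RNA as a covariate. The response to cold differed from that of Hezuo by -0.49 ± 0.17 (adjusted p = 0.476), and in the cold Hezuo was lower than Bama without overlap (-0.28 ± 0.12, adjusted p = 0.219).

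NEDD4, the ligase that names the family, was lower in Hezuo than in Bama in every pig at each temperature. It had 17.5, 15.4 and 20.7 CPM in Bama and 10.4, 15.2 and 13.2 in warm Hezuo, and 17.0, 15.1 and 13.0 against 11.5, 9.31 and 9.80 in the cold. The log2 difference was -0.47 ± 0.18 at room temperature (edgeR adjusted p = 0.170) and -0.56 ± 0.18 in the cold (adjusted p = 0.104). Such a lack of overlap in this direction was found in 10.8% and 12.9% of all genes. Over the alternatives, the adjusted p in the cold ranged from 0.0571 to 0.301, so it missed the threshold in each.

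NEDD4L, the ligase known for removing the epithelial sodium channel from the cell surface, was lower in cold Hezuo without overlap in CPM. By FPKM the Hezuo groups overlapped (7.38 to 12.2 in the warm and 6.04 to 7.67 in the cold). NEDD4L had 45.5, 58.8 and 77.3 CPM in warm Hezuo and 43.4, 41.5 and 32.7 in the cold. The log2 fold change was -0.63 ± 0.23 (edgeR adjusted p = 0.227), a lack of overlap that 10.9% of all genes showed in this direction. It had 50.4 ± 15.3 CPM in warm Bama and 41.6 ± 4.28 in cold Bama, with overlap (-0.28 ± 0.23, adjusted p = 0.604). Averaged over the breeds, the cold difference was -0.45 ± 0.16 (adjusted p = 0.128).

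WWP1, a ligase with many reported substrates among growth regulators, had 104 ± 5.67 CPM in warm Bama, 130 ± 20.4 in cold Bama, 128 ± 24.7 in warm Hezuo and 122 ± 13.8 in cold Hezuo. For cold in Bama the log2 fold change was 0.33 ± 0.16 with overlap (edgeR adjusted p = 0.361). At room temperature all 3 Hezuo pigs were above the 3 Bama pigs (0.31 ± 0.16, adjusted p = 0.331), as was so for 13.0% of all genes. By FPKM WWP1 overlapped between these groups (14.2 to 20.1 in Hezuo and 14.9 to 16.2 in Bama), while warm and cold Bama stood apart. WWP2, its close relative, had group means between 95.4 and 111 CPM and log2 fold changes between -0.05 and 0.18, all with overlap.

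**Figure D5:**
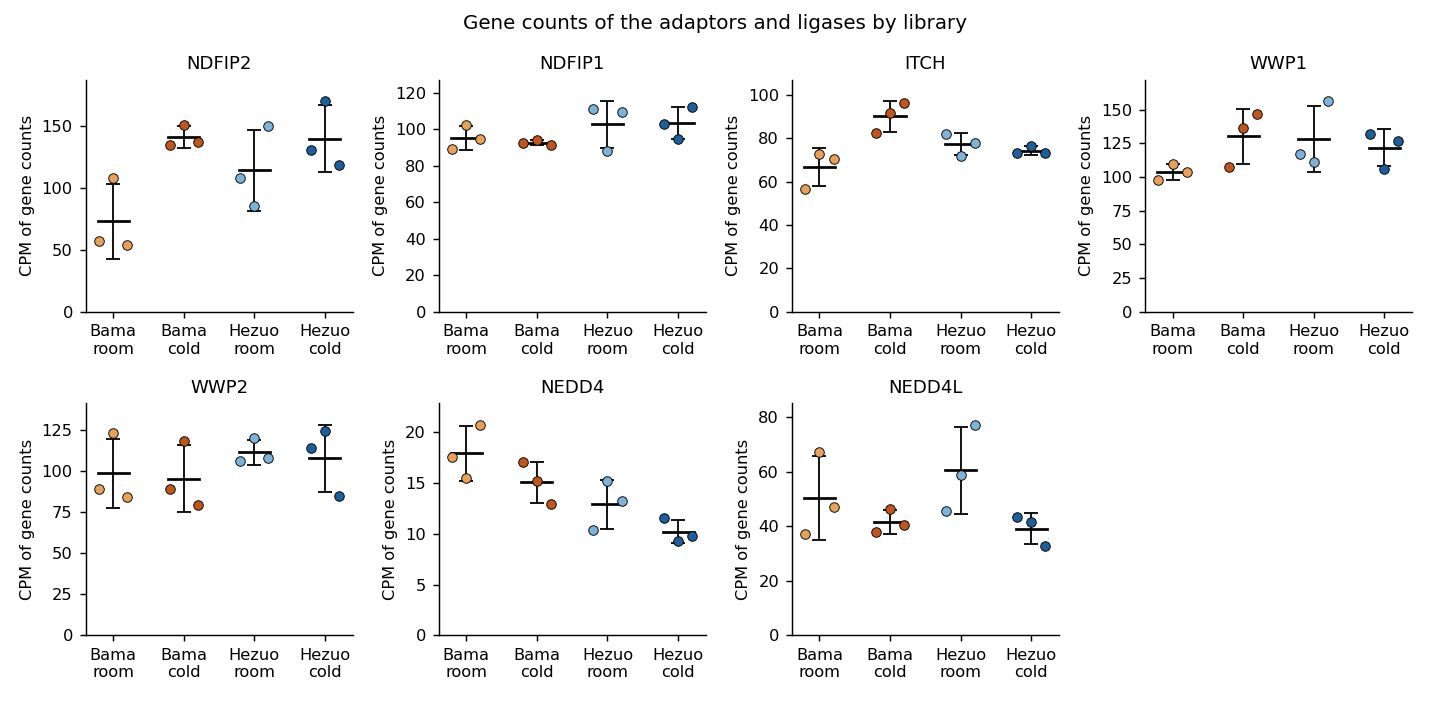
Gene counts per 1000000 (CPM, linear axes starting at 0) of the adaptors NDFIP2 and NDFIP1 and of the ligases ITCH, WWP1, WWP2, NEDD4 and NEDD4L, by group. Points are pigs, lines are means and bars are SD (n = 3). The 3 cold Bama pigs lie above the 3 warm ones in NDFIP2 and ITCH, and the Hezuo pigs lie below the Bama pigs in NEDD4 at each temperature.

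For ITCH and WWP1, back-splice counts relative to the gene row were lower in cold than in warm Bama, without overlap, as they were in 14.8% of the 1936 hosts with at least 50 back-splice counts. The ratio was lower in the cold for most hosts, so the tests below, which compare with no change, are to be read beside a median over all hosts of -0.25 on the log2 scale for cold within breeds. The ITCH ratio was 67.4 ± 3.42 back-splice counts per 1000 gene counts in warm Bama and 41.8 ± 7.36 in cold Bama, and 58.4 ± 8.21 and 48.1 ± 14.9 in Hezuo, with overlap. Within breeds, cold differed from room temperature by -0.51 on the log2 scale (exact permutation test, two-sided, p = 0.02, adjusted p = 0.12 over 6 tests), so it did not pass. The smallest p these 400 arrangements allow is 0.005.

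The WWP1 ratio was 46.1 ± 10.3 in warm Bama, 27.6 ± 5.53 in cold Bama, 38.8 ± 3.50 in warm Hezuo and 41.4 ± 6.67 in cold Hezuo. The cold difference was -0.33 (exact permutation test, p = 0.135, adjusted p = 0.405). Between the breeds the exact permutation p was 0.89 for ITCH (-0.02, adjusted p = 0.89) and 0.38 for WWP1 (0.18, adjusted p = 0.76). For WWP2, with 84 counts in all, the cold difference was -0.17 (exact permutation p = 0.795) and the breed difference 0.20 (exact permutation p = 0.715), both with an adjusted p of 0.89. None of the 6 tests passed.

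Of the 85 circRNAs of the other 6 hosts, 43 passed the filter on low counts, 23 from ITCH, 18 from WWP1 and 1 each from NDFIP1 and WWP2. None was called by edgeR in any of the 6 comparisons, where 0.155%, 0.0886%, 0.454%, 0.421%, 0.0886% and 0.199% of all 9032 circRNAs were, in the order given above for genes. DESeq2 also called 0 of them. At an unadjusted edgeR p of 0.05, 1, 2, 1, 2, 3 and 0 of the 43 passed, and the smallest adjusted p was 0.565. Of all circRNAs, 6.53%, 5.79%, 7.94%, 8.49%, 5.67% and 7.86% passed. The median log2 fold change of the 43 for cold in Bama was -0.20, beside -0.07 for all circRNAs.

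The most abundant ITCH circle, at chr17:37852424-37854328 (348 nt, annotated exons), had 34, 28 and 26 counts in warm Bama and 18, 24 and 22 in cold Bama. Hezuo pigs had 23, 11 and 19 counts when warm and 11, 16 and 19 when cold. Its log2 fold change was -0.09 for cold in Bama and -0.10 for cold in Hezuo. The ITCH circles at chr17:37831734-37854328 (106 counts) and chr17:37838591-37854328 (82 counts) close at the same end, so ends are shared here as the start is in NDFIP2.

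The most abundant WWP1 circle, at chr4:50433434-50447885 (543 nt, annotated exons), had 22, 31 and 35 counts in warm Bama and 15, 19 and 18 in cold Bama. It had 26, 20 and 28 counts in warm Hezuo and 30, 12 and 40 in cold Hezuo, with log2 fold changes of -0.38 in Bama and 0.21 in Hezuo. A WWP1 circle with intron sequence, at chr4:50473240-50486463 (9480 nt), had 3, 0 and 18 counts in warm Hezuo and 9, 8 and 36 in the cold. This circle had 9, 14 and 30 counts in warm Bama and 9, 7 and 13 in cold Bama. Its log2 fold change in the cold was 1.36 ± 0.57 in Hezuo (edgeR adjusted p = 0.850) and -0.44 ± 0.55 in Bama (adjusted p = 0.996). The difference of these responses was 1.80 ± 0.79 (adjusted p = 0.859). The pigs of 1 group spanned a wider range than the groups. The main WWP2 circle, at chr6:17130520-17160532 (363 nt), had 55 counts in all.

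Around the 7 members, genes of the same pathway were followed in 5 lists. Of their 104 genes, 96 matched a row and 91 were tested. For averaged cold 4 of the 91 were called by edgeR (4.4%, beside 3.89% of all genes), for breed in the cold 4 (4.4%, beside 2.76%), and for cold in Bama and breed at room temperature 1 each (1.1%, beside 0.924% and 1.08%). These shares lie near or above those of all genes. Among 3 other HECT ligases tested, SMURF1, SMURF2 and HECW2, none was called by edgeR or DESeq2, and 1 had an unadjusted p below 0.05 for cold in Bama. None of 13 genes of ubiquitin supply (ubiquitin genes and the enzymes that charge and carry it) and none of 26 genes of ESCRT sorting, which carries ubiquitinated cargo into lysosomes, was called by edgeR in any comparison. At an unadjusted p of 0.05, 1 of the 13 and 3 of the 26 passed for cold in Bama, beside 15.8% of all genes. The median log2 fold changes of these lists were 0.08 and 0.04. DESeq2 called 1 of the 13 and 2 of the 26 for breed in the cold, 1 of the 26 for averaged cold, and none in the other comparisons. Of all 13532 genes, DESeq2 called 1227 for breed in the cold and 1491 for averaged cold.

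Of 27 adaptors and PY-motif proteins tested, 0 rose and 1 fell for cold in Bama, 2 were higher and 1 lower in cold Hezuo than in cold Bama, and 1 rose and 1 fell for cold averaged over breeds. The one that fell was WBP1, a WW-domain binding protein, which went from 19.3 ± 0.986 to 11.6 ± 0.870 CPM in Bama (-0.73 ± 0.12, edgeR adjusted p = 0.0194) and fell by 0.54 on the log2 scale averaged over breeds (adjusted p = 0.0111). In Hezuo its means were 22.1 ± 0.999 and 17.4 ± 1.74 CPM (-0.34). WBP1 (0.58 ± 0.12, adjusted p = 0.0280) and WBP2 (0.50 ± 0.11, adjusted p = 0.0369) were higher in cold Hezuo than in cold Bama. N4BP1, a NEDD4-binding protein, was lower there (-0.43 ± 0.10, adjusted p = 0.0421), with 34.4 ± 0.787 CPM in Bama and 25.5 ± 1.29 in Hezuo.

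LITAF, an endosomal protein whose PY motif binds NEDD4 and ITCH, rose with cold averaged over breeds (1.32 ± 0.27, edgeR adjusted p = 0.0286). It had 73.2, 56.5 and 55.3 CPM in warm Bama and 213, 102 and 76.5 in cold Bama. Counterparts in Hezuo were 54.5, 48.4 and 42.9 CPM in the warm and 84.2, 139 and 207 in the cold. Each breed by itself missed the threshold (adjusted p = 0.197 in Bama and 0.118 in Hezuo), and the cold pigs varied widely.

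Of 22 substrates and regulators of the ligases tested, SCNN1B and KCNQ1 were called. SCNN1B, a subunit of the epithelial sodium channel that NEDD4L ubiquitinates, rose with cold averaged over breeds (1.40 ± 0.27 in log2, edgeR adjusted p = 0.0231), from 5.92 ± 1.88 to 17.5 ± 2.11 CPM in Bama and from 8.33 ± 4.08 to 19.6 ± 8.26 in Hezuo. KCNQ1, a potassium channel that NEDD4L also regulates, was higher in Hezuo than in Bama when warm (1.07 ± 0.21, adjusted p = 0.0407) and when cold (0.98 ± 0.21, adjusted p = 0.0329), and fell with cold averaged over breeds (-0.60 ± 0.15, adjusted p = 0.0451). The median log2 fold change of the 22 was 0.05 for cold in Bama and 0.13 for cold in Hezuo.

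Most of these 10 calls were lost when one or another library was left out, at times a library outside the groups compared. With each of the 12 libraries left out in turn, WBP1 remained called for averaged cold in 12 of 12 fits (adjusted p up to 0.0339). For cold in Bama it was called in 9 of 12, and not without warm Bama replicate 3 or cold Bama replicates 1 or 3 (up to 0.0861). SCNN1B was called in 8 of 12 and not without warm Bama replicate 3, warm Hezuo replicate 2 or cold Hezuo replicates 2 or 3 (up to 0.0659). LITAF was called in 7 of 12 and not without any 1 of those 4 or warm Hezuo replicate 3 (up to 0.0787). For breed in the cold, WBP1 was called in 8 of 12 and not without replicates 1 or 2 of either cold group (up to 0.118). KCNQ1 was called there in 6 of 12, failing without replicates 1 or 2 of cold Bama, replicate 1 of warm Hezuo or any cold Hezuo pig (up to 0.125).

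WBP2 and N4BP1 were called for breed in the cold in 3 of 12 fits each, those without warm Bama replicate 2 or warm Hezuo replicates 2 or 3, and otherwise had an adjusted p of up to 0.133 and 0.141. KCNQ1 was called for breed at room temperature in 6 of 12, failing without replicates 1 or 3 of warm Bama or warm Hezuo or replicate 2 of either cold group (up to 0.148), and for averaged cold only in the 2 fits without warm Hezuo replicate 2 or cold Hezuo replicate 1 (otherwise up to 0.104). With Y-linked RNA as a covariate none of the 10 calls was kept, with adjusted p from 0.0538 to 0.638. Fits of only the groups compared, which exist for 6 of the 10, kept none of those 6 (adjusted p from 0.0544 to 0.109). DESeq2 called all 10.

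The gene rows most like NDFIP2 over the 12 libraries were those of 4 metabolic enzymes and a zinc exporter. By Pearson correlation of log2 CPM among 13531 tested genes, GLS2, the liver glutaminase, came first (r = 0.949), followed by CBS, the cystathionine beta-synthase (0.945), ETNPPL, which breaks down phosphoethanolamine (0.938), SLC30A1, a zinc exporter (0.934), and ARG1, the arginase of the urea cycle (0.927). The 12 libraries share groups and scaling, so r is a description. GLS2 had 1433, 4807 and 1655 counts in warm Bama and 4186, 7086 and 6608 in the cold, with 5146, 2755 and 4175 and then 3695, 8473 and 4598 in Hezuo. As in NDFIP2, Bama replicate 2 at room temperature was the highest of its group in each of these 5 genes. Of the other members, ITCH had r = 0.69 and WWP1 0.61, NDFIP1 0.31 and NEDD4 -0.64.

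Among the 9023 tested circRNAs of other hosts, those most like the summed NDFIP2 circles came from CREBBP (r = 0.870), an unnamed host (0.859), MYO16 (0.830), PCCA (0.826) and HNRNPA2B1 (0.825). Their counts were low. The PCCA circle had 2, 3 and 5 counts in warm Bama and 3, 11 and 19 in the cold, and the MYO16 circle 1, 2 and 1 against 7, 6 and 11. With such counts a high r over 12 libraries is weak.

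The summed levels of some cell type markers also differed between the groups. Sinusoidal endothelial markers overlapped, at 1195 to 1515 CPM in warm Bama and 1141 to 1404 in cold Bama. In Hezuo they summed to 1185 to 1533 and 1344 to 1399. B and plasma cell and bile duct markers also overlapped in sum, with none called by edgeR. Endothelial KDR (0.62, edgeR adjusted p = 0.0497) and stellate LRAT (1.49, adjusted p = 0.0381) were higher in cold Hezuo than in cold Bama. Of 8 markers of stellate cells and fibroblasts, 2, the collagen genes COL3A1 and COL1A2, fell for cold in Bama (median of the 8, -1.41), and their summed level was 2006 to 4161 CPM in warm Bama, 652 to 1137 in cold Bama, 1390 to 2392 in warm Hezuo and 758 to 1323 in cold Hezuo. The 10 macrophage markers summed to 2427 to 3338, 3167 to 5512, 1565 to 2672 and 2361 to 4251 CPM in the same order, with 0 called by edgeR for cold in Bama, 3 at an unadjusted p below 0.05 and 2 by DESeq2. The 10 T and NK cell markers summed to 145 to 336 and 168 to 264 CPM in Bama and to 80.3 to 127 and 89.3 to 127 in Hezuo, with 1, CD8A, called lower in Hezuo by edgeR at each temperature. For breed, 9 of the 10 had an unadjusted edgeR p below 0.05 at room temperature and 6 in the cold. Of all genes, 19.8% and 21.1% did. The median log2 fold change of the 10 was -1.29 and -0.89, and DESeq2 called 7 and 4 lower in Hezuo. Of all 13532 genes, edgeR called 1.08% and 2.76% for these comparisons, and DESeq2 called 1036 and 1227 in either direction. Of 10 hepatocyte markers 1, TF, the serum iron carrier transferrin, fell for cold in Bama by edgeR (median of the 10, -0.45). An unadjusted edgeR p below 0.05 was seen for 6 of them, and DESeq2 called 4 lower and 1 higher. Of all 13532 genes, 15.8% had such a p for cold in Bama, edgeR called 0.924% and DESeq2 called 682. Averaged over breeds, cold was called for 4 of the 8 stellate markers (COL3A1, COL1A2, COL1A1 and DCN) and 3 of the 10 hepatocyte markers (TF, AHSG and TTR), all lower, and for 1 of the 10 macrophage markers, VSIG4, which was higher (0.82, edgeR adjusted p = 0.0215). Of all genes, edgeR called 3.89% for averaged cold. TF and the other markers named here were chosen after their values were seen. The part of cell make-up in the NDFIP2, ITCH and NEDD4 values was not tested.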

How the data were processed

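Liver RNA was depleted of ribosomal RNA, primed at random and sequenced as 12 libraries with its strand kept, per the labels' protocols. The submitters' processing notes name fastp. No aligner, caller of circRNAs or build is given in the sources used here. The gene table holds estimated counts per gene that the authors deposited without normalization, beside an FPKM value per gene and library, also as deposited by them. Of the nonzero estimated counts, 9.48% were fractional, and all were rounded. The circRNA table holds back-splice counts as deposited by the authors, beside their RPM values, which equal the counts scaled to 1000000 per library, from the values as deposited. Of the gene rows, 14940 are named in the file and 889 were named from a table of Ensembl names.

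The labels number the pigs 1 to 3 in each group and use the same numbers at both temperatures. They do not say whether these are the same animals, and the 12 libraries were treated as separate pigs. Replicates of a group correlated at r = 0.963 to 0.977 over genes, and none was merged. Both tables were fitted with edgeR 4.0.16 (R 4.3.3), by TMM scaling (factors 0.874 to 1.197 for genes and 0.954 to 1.065 for circRNAs) and a robust quasi-likelihood model of 4 groups over 12 libraries with 8 residual degrees of freedom. Genes entered after filterByExpr, with 10 as its minimum count and 15 as its minimum total, and circRNAs with at least 2 counts in 3 libraries and at least 10 in all. An adjusted p is Benjamini-Hochberg over all 13532 genes or 9032 circRNAs, called below 0.05. CPM means carry the SD over 3 pigs. The script was tested on simulated data.

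Ratios of other hosts were tested by exact permutation within breed or temperature (numpy 2.4.6), for hosts with at least 50 back-splice counts and a pseudocount of 0.5. Alternatives were DESeq2 1.42.0, other scalings and filters, a replicate block, Y-linked RNA as a covariate and each library left out. The members and the gene lists were chosen with earlier results of these data known. The rule for named features covered all members, every NDFIP2 circle, circRNAs of the other hosts with at least 20 counts, at most 4 called genes per list and comparison by smallest adjusted p, and the 5 genes and 5 circRNAs most like NDFIP2. Circle sequences were not used here.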

Additional observations from a re-analysis of the deposited data

How the results depend on the processing

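None of the 6 tested member genes was called by edgeR under the alternatives run, in any of the 6 comparisons, and DESeq2 called 1, ITCH, for cold in Bama. Of the circRNAs of the other hosts, 0 were called under every alternative run except 1: for breed at room temperature, leaving out 1 library gave 0 to 1 (1 without warm Hezuo replicate 3). The NDFIP2 ratio difference in cold Bama was 1.65 on the log2 scale per 1000000 gene counts in place of the NDFIP2 gene row, and 0.48 against that row.

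Small values changed sign. NDFIP1 for cold in Hezuo was -0.045 with upper-quartile scaling. WWP2 was 0.26 for cold in Bama, 0.11 for averaged cold and -0.31 for the difference of cold responses with Y-linked RNA as a covariate, and that difference was -0.028 with upper-quartile scaling, -0.0030 without a filter and -0.014 with the replicate block. The cause was not tested. With 1 library left out, NDFIP1 ranged from -0.085 to 0.020 for cold in Bama, -0.082 to 0.073 for cold in Hezuo, -0.051 to 0.10 for their difference and -0.056 to 0.021 averaged. WWP2 ranged from -0.23 to 0.15, -0.16 to 0.11, -0.18 to 0.19 and -0.14 to 0.054 in that order. NEDD4 ranged from -0.23 to 0.047 for the difference of cold responses, NEDD4L from -0.17 to 0.021 for breed in the cold and WWP1 from -0.16 to 0.10 for cold in Hezuo. The breed difference of the ITCH ratio ranged from -0.098 to 0.12, and the WWP2 ratio from -0.49 to 0.19 for cold and -0.16 to 0.52 for breed.

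Over the 18 same-numbered pairs of pigs from different groups, deviations from the group means correlated at r = -0.198 to 0.148 (other pairs -0.244 to 0.168). Warm and cold pairs within a breed had r = 0.138, 0.148 and 0.022 in Bama and -0.083, 0.079 and -0.014 in Hezuo. Unlike-numbered pairs ranged from -0.155 to 0.008 in Bama and from -0.089 to 0.111 in Hezuo. Whether the numbers pair pigs within a breed thus cannot be told, and the main fit has no pairing. With the replicate block 0 of the 6 genes were called, and the calls over all genes were 67 in place of 125 for cold in Bama, 0 in place of 38 for cold in Hezuo, 35 in place of 146 for breed at room temperature, 261 in place of 374 for breed in the cold, 361 in place of 526 for averaged cold and 1 in both for the difference of cold responses. DESeq2 called 682, 540, 1036, 1227, 1491 and 139 genes in that order, the fit with Y-linked RNA 1, 3, 3, 132, 6 and 0, and fits of only the groups compared 12, 60, 139 and 116 for the first 4. For circRNAs, edgeR called 14, 8, 41, 38, 18 and 8, and DESeq2 14, 3, 25, 24, 22 and 2. The alternatives for genes of the lists were chosen after seeing the data, and with the replicate block 5 of their 10 calls remained. No warm Bama library, and each cold Bama library but replicate 2, had more than 10 DDX3Y counts, so with that covariate cold in Bama rests on few pigs by construction. Every Hezuo library had more than 10, so that fit separates breed at room temperature from Y-linked RNA only through the cold Bama pigs. Depth limits the rare circles: in the comparisons of 2 groups, the log2 SE was 0.86 to 2.02 for the 4 fitted NDFIP2 circles of 15 to 49 counts and 0.23 to 0.35 for A-C, A-D and A-F.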
